A study of Mus musculus with 8 samples.

Results

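The 10 genes described here (Fscn1, Il12b, Socs2, Cacnb3, Marcksl1, Birc3, Il4ra, Il15ra, Samsn1 and Serpinb9) belong to the program of mature regulatory dendritic cells, with the surface ligands and chemokine receptors of that state left out. They were taken by name from a published cell state, with earlier results of these data known. All 10 were found among the 24369 gene symbols of the count table. RNA was sequenced from conventional dendritic cells sorted by flow cytometry from MC38-EGFP tumours, the mouse colon carcinoma line MC38 marked with enhanced green fluorescent protein (EGFP). The 4 groups were EGFP+ cDC1, EGFP- cDC1, EGFP+ cDC2 and EGFP- cDC2, with 2 libraries each. All were labelled WT for genotype and tumor for tissue, and their cell type tag reads Colon cancer, although the titles name dendritic cell subsets. No age, drug or Cre line is given for these libraries, although the series title concerns sitagliptin. Whether replicates of a group are from separate animals is not in the labels. The p-values therefore measure the spread between these libraries alone, and part or all of it may be technical.

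Dendritic cells that mature in tumours switch on genes for migration to lymph nodes, for costimulation and for inhibitory ligands, together with genes of cytokine signalling and of the actin skeleton. This state has been described in both cDC1 and cDC2, and uptake of tumour material is known to accompany it. cDC1 are known for cross-presentation to CD8 T cells and as a source of interleukin-12 in mouse tumours. In sorted bulk samples, a difference in the number of mature cells and a difference in RNA per cell cannot be told apart.

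The library totals ranged from 17869441 to 22195681 counts, and levels are given as CPM, the counts of a gene scaled to a common library size, after TMM scaling for composition. Genes with a count numbered 8553 and 8208 in EGFP+ cDC1, the fewest, against 9602 to 11922 in the other libraries. The ribosomal RNA symbol Rn45s took from 19.4 to 35.6% of the counts, most in EGFP+ cDC1 replicate 2. The 2 EGFP+ cDC1 libraries stood apart from each other. On the log2(CPM + 1) scale, replicates correlated over genes with a Pearson r of 0.629 in EGFP+ cDC1, against 0.850 in EGFP- cDC1, 0.875 in EGFP+ cDC2 and 0.898 in EGFP- cDC2 (genes are not independent replicates). The 13 markers of macrophages and monocytes summed to 478 CPM in EGFP+ cDC1 replicate 1 and 13220 CPM in replicate 2, against 2252 and 3395 CPM in EGFP- cDC1. Lyz2, the myeloid lysozyme, was at 290.2 CPM in replicate 1 and 8773 CPM in replicate 2, and 1 of the 13 was at 0 in each. Apoe, an apolipoprotein of macrophages, was at 1.31 and 1543 CPM in these replicates, the arginase gene Arg1 at 1.27 and 1362 CPM and the receptor gene Csf1r at 1.27 and 401 CPM. The complement genes C1qb and C1qa were at 0.919 and 98.4 CPM and at 0.481 and 4.21 CPM there. Adgre1, a macrophage gene also among the 13, went the other way, at 41.7 CPM in replicate 1 and 0.421 CPM in replicate 2. The 8 markers of epithelium and stroma summed to 807 CPM in EGFP+ cDC1 replicate 1 and 22.5 CPM in replicate 2, against 10.1 and 30.7 CPM in EGFP- cDC1. Of these, the matrix gene Sparc alone was at 674 CPM in replicate 1, and 4 of the 8 genes were at 0 there. Those at 0 were Pecam1, which was at 19.4 CPM in replicate 2, and the epithelial genes Epcam, Krt8 and Krt18, also at 0 in replicate 2. The 9 cDC1 markers summed to 3321 and 3964 CPM in EGFP+ cDC1, against 7593 and 6473 CPM in EGFP- cDC1. Of these 9, Itgae went the other way, at 220.9 to 290.2 CPM in EGFP+ cDC1, against 140.8 to 177.7 CPM in EGFP- cDC1. Irf8 overlapped, at 418 to 1318 CPM against 1032 to 1485 CPM. The 8 cDC2 markers summed to 32.95 and 395.8 CPM in EGFP+ cDC1, against 200.8 and 306 CPM in EGFP- cDC1. Of the cDC1 markers, Xcr1 and Clec9a were at 222 and 49.1 CPM in EGFP+ cDC1 replicate 1 and at 104 and 130 CPM in replicate 2. In the libraries gated as cDC2 the 8 cDC2 markers summed to 934.4 and 915 CPM in EGFP+ and to 904.9 and 948.6 CPM in EGFP- libraries. The dendritic lineage genes Flt3 and Zbtb46 were near absent there, Flt3 ranging from 0 to 10.8 CPM and Zbtb46 from 0 to 1.04 CPM. The macrophage and monocyte sum of these libraries was 26760 to 55280 CPM, with C1qa at 979.5 to 2478 CPM, so cDC2 names that gate in what follows. T, NK and B cell markers summed to at most 42.8 CPM in any library.

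Il12b, on chromosome 11 (chr11:44400063-44414033, GRCm38, plus strand), encodes the subunit shared by interleukin-12 and interleukin-23. Fscn1, on chromosome 5 (chr5:142960343-142973185, plus strand), encodes fascin, the actin bundling protein behind the long processes of mature dendritic cells. They are shown because they differed in opposite directions between the EGFP+ cDC1 replicates, and they are the 2 of the 9 members with a promoter in the RefSeq table that held a TATA type motif. The 250 bases before their annotated starts (RefSeq, GRCm38.p6, plus strand, chr11:44399813-44400062 and chr5:142960105-142960354) are shown with that motif in capitals.
Il12b: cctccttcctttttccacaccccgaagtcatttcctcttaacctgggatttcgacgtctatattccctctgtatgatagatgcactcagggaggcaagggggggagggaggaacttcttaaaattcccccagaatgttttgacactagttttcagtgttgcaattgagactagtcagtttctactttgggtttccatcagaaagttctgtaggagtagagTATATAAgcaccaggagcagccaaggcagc
Fscn1: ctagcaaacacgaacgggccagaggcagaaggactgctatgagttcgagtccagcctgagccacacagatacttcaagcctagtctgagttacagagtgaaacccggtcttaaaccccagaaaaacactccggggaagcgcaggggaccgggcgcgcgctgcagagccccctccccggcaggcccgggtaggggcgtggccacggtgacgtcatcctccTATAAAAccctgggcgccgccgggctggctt
The motif, searched as TATANAA on both strands and chosen after the sequences had been read, began 30 bases before the start of Il12b and 31 bases before that of Fscn1. Of all genes with a promoter in the table, 12.1% held it in the same window, and so did 10.4% of the promoters. Neither the NF-kB type motif (a G triplet, then a T pair, then a C pair, with free bases between them) nor the STAT type motif TTCNNNGAA was present on either strand, as exact letters, in any of the 11 promoters of these 9 members. Among all genes with a promoter in the table, 4.71% held the NF-kB type letters and 8.13% the STAT type letters. A match, or none, describes the letters of this window alone.

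The cytokine gene Il12b had the widest range of the 10. It stood at 25.3 and 4651 CPM in EGFP+ cDC1 (replicates 1 and 2, an order kept throughout), against 16.8 and 98.6 CPM in EGFP- cDC1. cDC2 libraries held little of it, 0.0521 and 0.248 CPM in EGFP+ libraries, against 0.323 and 2.23 CPM in EGFP- libraries. Every cDC1 library was thus above every cDC2 library, and EGFP+ cDC1 replicate 2 was far above the other 7. EGFP+ cDC1 replicate 1 lay between the 2 EGFP- cDC1 libraries.

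The cytokine receptor genes were more even. Il4ra, the chain shared by the receptors for interleukin-4 and interleukin-13, stood at 144 and 170.2 CPM in EGFP+ cDC1, against 75.8 and 43.3 CPM in EGFP- cDC1. It was at 155 and 55.6 CPM in EGFP+ cDC2, against 138 and 97.8 CPM in EGFP- cDC2. Of the 10 genes it was the one whose EGFP+ and EGFP- cDC1 libraries did not overlap. Il15ra, which binds interleukin-15 and presents it to neighbouring lymphocytes, was at 18.8 and 40.4 CPM in EGFP+ cDC1, against 34.3 and 16.9 CPM in EGFP- cDC1. Il15ra was lower in all 4 libraries of the cDC2 gate, at 7.24 and 5.20 CPM in EGFP+ and 9.27 and 6.99 CPM in EGFP- cDC2.

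The 3 regulators of signalling differed among themselves. Samsn1, an adaptor known to restrain lymphocyte activation, had 2 counts in EGFP+ cDC1 replicate 1 (0.0875 CPM) and 184.5 CPM in replicate 2, against 61.9 and 13.4 CPM in EGFP- cDC1. It was at 33.8 and 17.0 CPM in EGFP+ cDC2, against 23.7 and 41.8 CPM in EGFP- cDC2. The EGFP+ cDC1 libraries therefore held both the lowest and the highest Samsn1 of the 8. Birc3, an inhibitor of apoptosis and ubiquitin ligase of NF-kB signalling, was at 12.7 and 73.2 CPM in EGFP+ cDC1, against 47.6 and 4.43 CPM in EGFP- cDC1, so these groups overlapped. In the 4 cDC2 libraries Birc3 stayed between 33.0 and 49.2 CPM. Socs2, a feedback inhibitor of cytokine receptor signalling, had 0 counts in EGFP+ cDC1 replicate 1 and 13.1 CPM in replicate 2, against 4.21 and 8.67 CPM in EGFP- cDC1. In the cDC2 gate it was at 6.09 and 2.62 CPM in EGFP+ libraries, against 19.5 and 39.3 CPM in EGFP- libraries. The EGFP- cDC2 libraries were thus the highest, and the EGFP+ cDC2 libraries lay within the range of cDC1.

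Genes of the cytoskeleton and of calcium channels also split the replicates. Fscn1 was at 78.5 and 21.3 CPM in EGFP+ cDC1, against 37.2 CPM and 0 counts in EGFP- cDC1. In cDC2 it had 0 counts and 6.68 CPM in EGFP+ libraries, against 1 count in each EGFP- library. Fscn1 was the one member highest in EGFP+ cDC1 replicate 1. Marcksl1, a relative of the actin and calmodulin binding protein MARCKS, was at 11.3 and 248 CPM in EGFP+ cDC1, against 47.5 and 21.3 CPM in EGFP- cDC1. It was even across the cDC2 gate, at 84.1 and 89.1 CPM in EGFP+ libraries, against 133 and 93.9 CPM in EGFP- libraries. Cacnb3, a regulatory subunit of voltage-gated calcium channels, had 0 counts in EGFP+ cDC1 replicate 1 and 61.1 CPM in replicate 2, against 11.8 CPM and 0 counts in EGFP- cDC1. Cacnb3 in cDC2 had 0 counts and 3.62 CPM in EGFP+ libraries, against 0 and 3 counts in EGFP- libraries.

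Serpinb9 (chr13:33003250-33017957, plus strand), an inhibitor of granzyme B that protects antigen-presenting cells from cytotoxic granules, was at 159.5 and 1088 CPM in EGFP+ cDC1, against 252 and 126 CPM in EGFP- cDC1. In the cDC2 gate it was at 10.4 and 9.51 CPM in EGFP+ libraries, against 36.5 and 25.7 CPM in EGFP- libraries. Every cDC1 library was above every cDC2 library, and within cDC2 both EGFP+ libraries were below both EGFP- libraries. The 6 related genes Serpinb9b to Serpinb9g, with which Serpinb9 could share reads, had 0 counts in all 8 libraries.

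**Figure D1:**
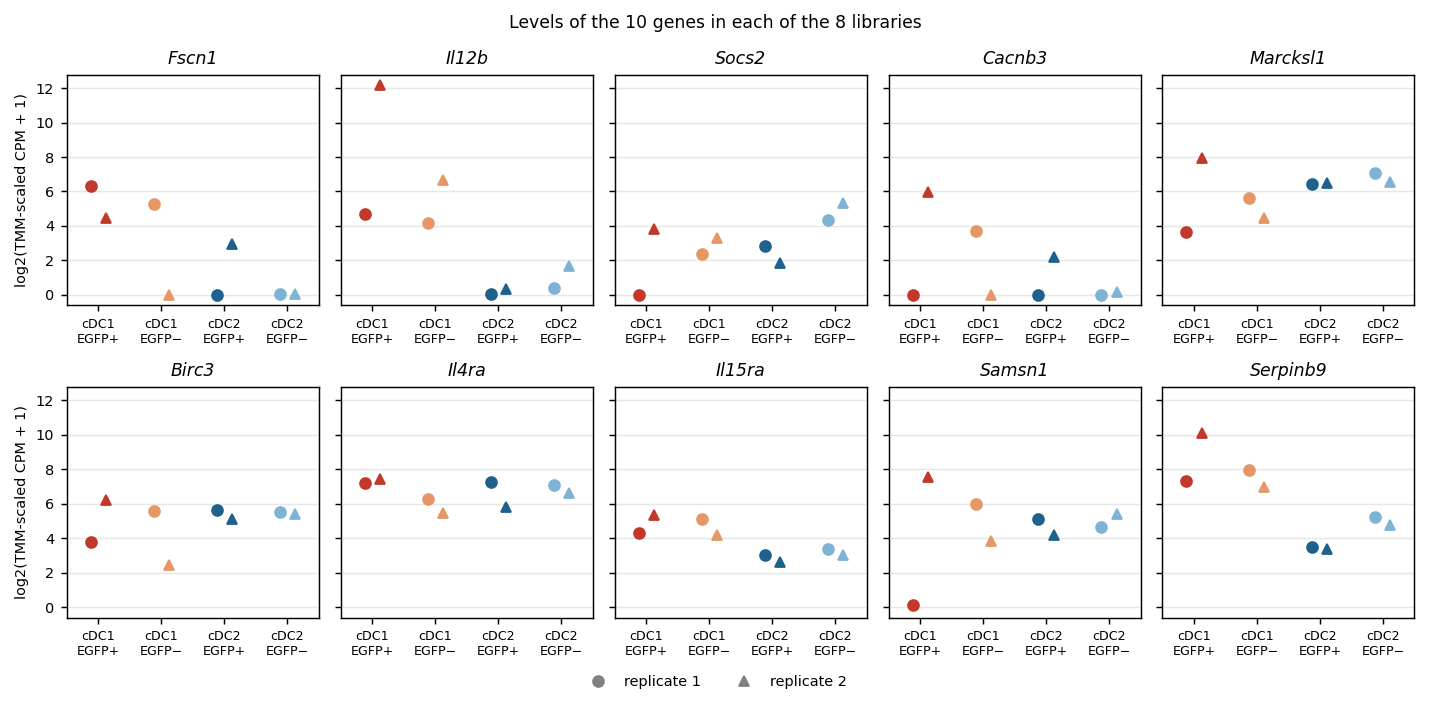
Levels of the 10 genes in each library, as log2(TMM-scaled CPM + 1) on the vertical axis, with the 4 groups side by side, circles for replicate 1 and triangles for replicate 2. EGFP+ cDC1 replicate 2 is the highest library for 8 of the 10 genes, and Il12b, Il15ra and Serpinb9 are above the cDC2 gate in all 4 cDC1 libraries.

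The EGFP+ cDC1 replicates differed in most of the program. EGFP+ cDC1 replicate 2 was the highest of the 8 libraries for 8 of 10 members, where it was the highest for 15% of all 11394 genes tested. The members were chosen with earlier results of these data known, so such shares describe them and are no independent test. Fscn1 was highest in EGFP+ cDC1 replicate 1, as were 17.9% of genes, and Socs2 in EGFP- cDC2 replicate 2, as were 7.18%. Il12b was 184-fold higher in EGFP+ cDC1 replicate 2 than in replicate 1 (95% counting interval 169 to 199.9). Marcksl1 was 21.9-fold higher (19.3 to 24.9), Serpinb9 6.82-fold higher (6.58 to 7.07) and Birc3 5.79-fold higher (5.08 to 6.62). Against the 2 counts in replicate 1, Samsn1 was 2108-fold higher, with a wide counting interval of 583 to 17420. Cacnb3 was at least 465-fold and Socs2 at least 99.4-fold higher, both set against a floor of 3 counts in replicate 1. Intervals and floors cover counting error only, because reads were amplified by PCR with no molecular identifiers and are not independent.

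Of the 10 members, 7 were at least 4-fold higher in replicate 2 and 0 were at least 4-fold lower, where 19.9% of all genes tested were at least 4-fold higher and 20.2% at least 4-fold lower. Il15ra (2.15-fold) and Il4ra (1.18-fold) were higher by less, and Fscn1 was 3.69-fold higher in replicate 1. The direction of Il4ra, and its place among the members highest in replicate 2, rested on TMM scaling. Its raw counts were 2425 in replicate 2 and 3287 in replicate 1. Library totals were 17869441 and 20039994 in that order, and effective sizes after TMM were 14248091 and 22852789. In EGFP- cDC1 the replicates differed the other way, with 4 members at least 4-fold lower in replicate 2 (Fscn1, Cacnb3, Birc3 and Samsn1) and 1 higher (Il12b), where 13.8% of genes were lower and 11.3% higher. The macrophage and monocyte sum given above was also higher in EGFP+ cDC1 replicate 2 than in replicate 1, and the stromal sum was lower. Their part in the difference between the replicates was not tested.

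**Figure D2:**
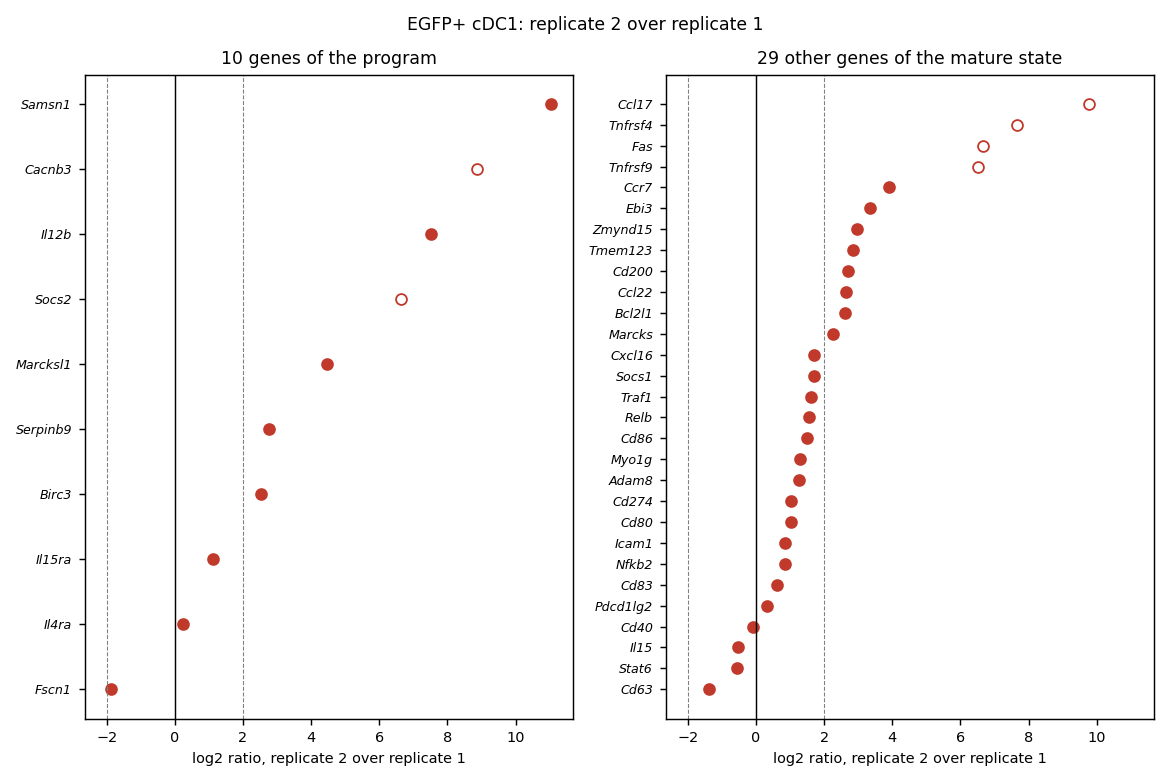
EGFP+ cDC1 replicate 2 over replicate 1, as a log2 ratio of CPM, for the 10 genes (left) and for 29 other genes of the mature state (right); open circles are lower bounds where replicate 1 had 0 counts, and dashed lines mark 4-fold. On the left 7 genes lie right of the upper line and Fscn1 lies below 0; on the right 12 genes lie beyond it.

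A list of 30 other genes of the mature state, among them surface ligands, chemokine receptors and regulators, was read in the same way. Of the 30, 12 were at least 4-fold higher in replicate 2 and 0 lower, where 19.9% and 20.2% of all genes tested were. The gene Aldh1a2 had 0 counts in both, and Tnfrsf4, among the 12, was not among the genes tested. Ccr7, the receptor that guides mature dendritic cells to lymph nodes, stood at 368 and 5498 CPM in EGFP+ cDC1, against 277 and 70.8 CPM in EGFP- cDC1. It was named after its values had been seen. The libraries of the cDC2 gate held at most 4.01 CPM of it. EGFP+ cDC1 replicate 2 was the highest library for 17 of the 29 genes of the list that were tested, where it was for 15% of all genes tested.

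Whether carrying tumour-derived EGFP goes with the program in cDC1 was asked next. All 10 members had positive log2 fold changes in EGFP+ over EGFP- cDC1, with a median of 1.41, where 44.9% of all genes tested were positive and their median was −0.04. None passed the threshold of an adjusted p under 0.05 in edgeR's quasi-likelihood test, which called 0 of 11394 genes (0%). At an unadjusted p under 0.05, 2 members (Il4ra and Il12b) were counted, where 12.7% of all genes were. Il4ra averaged 157 ± 18.6 CPM in EGFP+ cDC1 and 59.6 ± 23.0 CPM in EGFP- cDC1 (SD, n = 2 each), a log2 fold change of 1.40 ± 0.55 (SE, edgeR adjusted p = 0.355). For Il12b the log2 fold change was 5.34 ± 2.18 (edgeR adjusted p = 0.382), for Serpinb9 1.72 ± 0.80 (0.403) and for Marcksl1 1.92 ± 1.13 (0.460). Those of the other 6 members lay between 0.02 (Socs2) and 2.37 (Cacnb3), each smaller than its standard error. Groups did not overlap for 1 member, Il4ra, where 11.5% of all genes were higher without overlap.

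With voom and quality weights 8 of 10 were positive with a median of 0.36, and with the replicate number as a block 8 of 10 with a median of 1.26. The cDC1 marker sum was lower in both EGFP+ cDC1 libraries than in both EGFP- ones, as given above, and its part in these values was not tested.

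These directions rested on EGFP+ cDC1 replicate 2. Without it, 2 of 10 members (Fscn1 and Il4ra) remained positive and the median was −1.11, where 34% of all genes were positive. Without replicate 1, all 10 were positive with a median of 1.91, where 34.3% of all genes were. In that fit edgeR called Marcksl1 (2.86, adjusted p = 0.0142) and Serpinb9 (2.53, adjusted p = 0.0154) higher in EGFP+ cDC1, among 6.15% of genes called. Without replicate 2 it called Samsn1 (−8.65, adjusted p = 0.0153) and Socs2 (−10.07, adjusted p = 0.0275) lower, among 8.41% of genes called. The remaining EGFP+ library held 2 and 0 counts of these genes, so the sizes depend on the prior count and are no bounds. Il4ra was at 1.52 without replicate 1 and 1.28 without replicate 2 (edgeR adjusted p = 0.188 and 0.238). DESeq2 called 1 member with all libraries, Il12b, among 11.6% of genes.

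**Figure D3:**
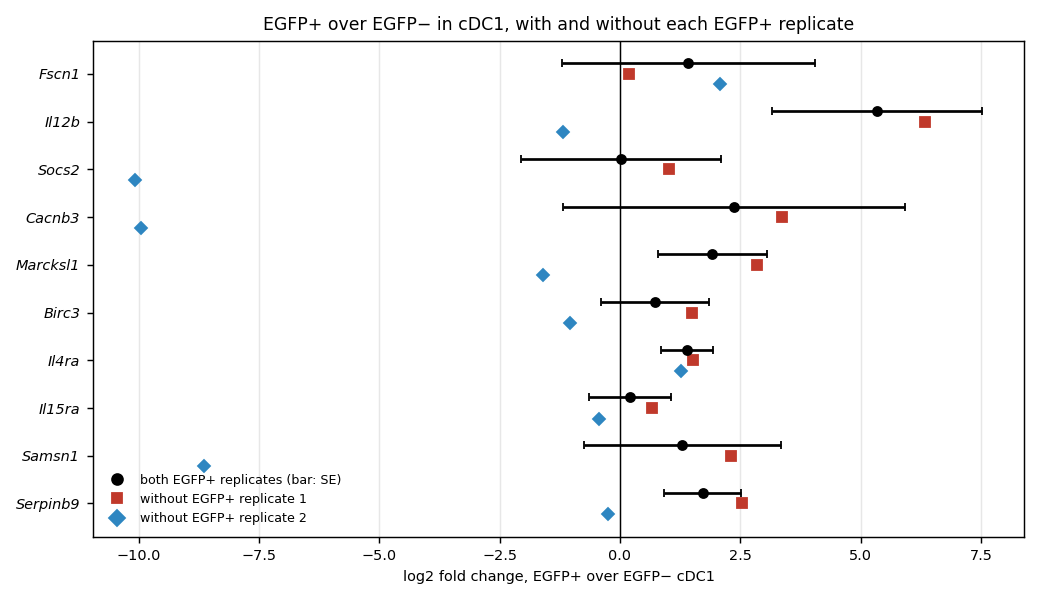
Log2 fold change of EGFP+ over EGFP- cDC1 for each of the 10 genes, with both EGFP+ replicates (black circle, bar is the standard error), without replicate 1 (red square) and without replicate 2 (blue diamond). All 10 circles and squares are above 0, and 8 diamonds are below it, Fscn1 and Il4ra being the exceptions.

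Within the cDC2 gate 8 of 10 members had negative log2 fold changes in EGFP+ over EGFP- cDC2, with a median of −0.38, where 53.1% of all genes were positive with a median of 0.08. In 4 of them (Il12b, Socs2, Marcksl1 and Serpinb9) both EGFP+ libraries were below both EGFP- libraries, where 19.2% of all genes were. Serpinb9 averaged 9.96 ± 0.64 CPM in EGFP+ cDC2 and 31.1 ± 7.61 CPM in EGFP- cDC2 (SD, n = 2 each), a log2 fold change of −1.64 ± 0.80. Socs2 averaged 4.36 ± 2.45 CPM in EGFP+ and 29.4 ± 14.0 CPM in EGFP- cDC2, a log2 fold change of −2.75 ± 2.22. For Il12b it was −3.04 ± 2.26, from levels near the floor of 3 counts, and for Marcksl1 −0.39 ± 1.09. By edgeR's quasi-likelihood test the adjusted p was 1 for all 4, 0 of 10 members were called among 0% of all genes, and 0 of 10 had an unadjusted p under 0.05, as did 2.63% of all genes. DESeq2 called 0 members among 0.965% of genes.

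The difference between the subsets in their EGFP contrasts was tested directly by the interaction. Il12b had an interaction of 8.38 ± 3.09 on the log2 scale (edgeR adjusted p = 0.439) and Serpinb9 one of 3.36 ± 1.13 (adjusted p = 0.422), their fold changes being positive in cDC1 and negative in cDC2. Neither passed the threshold, and edgeR called 0 of 10 members and 0% of genes. These 2 members had an unadjusted p under 0.05, where 10.4% of all genes did, and DESeq2 called Il12b among 6.27% of genes. Without EGFP+ cDC1 replicate 2 the interaction was 1.86 for Il12b and 1.40 for Serpinb9, and 3 of 10 members were positive with a median of −1.10, against 8 of 10 and 1.61 with it. In that fit the EGFP fold changes in cDC1 were negative, as in cDC2, at −1.19 for Il12b and −0.24 for Serpinb9. Over both subsets together, 0 of 10 members were called for EGFP by edgeR (0% of genes) and 0 had an unadjusted p under 0.05, where 5.22% of genes did. DESeq2 called 0 members there, among 1.61% of genes.

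Between the subsets, 3 members separated all libraries. Il12b, Il15ra and Serpinb9 were higher in each of the 4 cDC1 libraries than in each of the 4 cDC2 libraries, where 3.96% of all genes were. Serpinb9 averaged 406 ± 457 CPM in cDC1, against 20.5 ± 12.98 CPM in cDC2 (SD, n = 4 each). Its log2 fold change over both EGFP fractions was 4.28 ± 0.96 (edgeR adjusted p = 0.0882). Il15ra averaged 27.6 ± 11.6 CPM in cDC1, against 7.17 ± 1.67 CPM in cDC2, with a difference of 1.95 ± 0.67 on the log2 scale (edgeR adjusted p = 0.247). Il12b averaged 1198 ± 2302 CPM in cDC1, against 0.712 ± 1.02 CPM in cDC2, and its log2 fold change was 9.31 ± 3.06 (edgeR adjusted p = 0.260). Fscn1 averaged 34.2 ± 33.2 CPM in cDC1, against 1.70 ± 3.33 CPM in cDC2, with overlap and a log2 fold change of 5.84 ± 2.47 (edgeR adjusted p = 0.350). It was 2.69 without EGFP- cDC1 replicate 1 and 9.43 without EGFP+ cDC2 replicate 2, which leaves at most 1 count in a cDC2 library, so that size depends on the prior count. No member passed the threshold, where edgeR called 1.32% of genes, and these 4 members had an unadjusted p under 0.05, where 13.5% of genes did.

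The same 4 members were called by DESeq2, which called 10.2% of genes. Serpinb9 was called by 3 edgeR or limma fits as well, and its log2 fold change ranged from 3.19 to 4.98 over all alternatives, with adjusted p from 4.91e-06 to 0.354. Without EGFP+ cDC1 replicate 2, edgeR called Serpinb9 and Il12b higher and Marcksl1 lower in cDC1, 3 members where it called 2.22% of genes. Every subset value sets cDC1 against a gate with high macrophage genes, as given above, and the part of those cells was not tested.

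In the EGFP+ fraction the fitted values of all members were on the cDC1 side. All 10 members had positive log2 fold changes in EGFP+ cDC1 over EGFP+ cDC2, with a median of 2.05, where 42.2% of genes were positive with a median of −0.30 (−0.20 with RLE scaling). Fscn1, Il12b, Il15ra and Serpinb9 did not overlap between the groups, where 13.7% of genes were higher without overlap. Serpinb9 had a log2 fold change of 5.97 ± 0.96 (edgeR adjusted p = 0.0646), Il12b 13.86 ± 3.11 (0.126), Il15ra 2.25 ± 0.89 (0.282) and Fscn1 3.90 ± 2.90 (0.532). edgeR called 0 of 10 members and 0.228% of genes. DESeq2 called Il12b, Il15ra and Serpinb9 among 13.9% of genes, and 3 members had an unadjusted p under 0.05 by edgeR, where 15.9% of genes did. Fscn1 was at 2.67 without EGFP+ cDC1 replicate 1, and at 12.97 without EGFP+ cDC2 replicate 2, where the remaining cDC2 library had 0 counts. With voom and quality weights 6 of 10 members were positive with a median of 0.78, and with the replicate number as a block 9 of 10 with a median of 1.95. Without EGFP+ cDC1 replicate 2 the positive members numbered 5 of 10, with a median of −0.62, where 35.1% of genes were positive with a median of −0.85. In that fit 5 members were called by edgeR, Il12b and Serpinb9 higher and Marcksl1, Samsn1 and Socs2 lower in EGFP+ cDC1, among 10.2% of genes. Without replicate 1 it called 2, Il12b and Serpinb9, among 6.83% of genes.

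Within the EGFP- fraction the members divided. Il12b, Il15ra and Serpinb9 were higher without overlap in cDC1 than in cDC2, where 21.9% of genes were, and Socs2, Marcksl1 and Il4ra were lower without overlap, where 26.5% of genes were. Serpinb9 averaged 189 ± 88.7 CPM in EGFP- cDC1 and 31.1 ± 7.61 CPM in EGFP- cDC2 (SD, n = 2 each), a log2 fold change of 2.60 ± 0.82 (edgeR adjusted p = 0.358). For Il12b it was 5.48 ± 2.22 (0.505) and for Il15ra 1.65 ± 0.87 (0.598). Marcksl1 averaged 34.4 ± 18.5 CPM in EGFP- cDC1 and 113.5 ± 27.7 CPM in EGFP- cDC2, a log2 fold change of −1.72 ± 1.12 (edgeR adjusted p = 0.681). Those of Socs2 and Il4ra were −2.19 ± 2.17 (0.869) and −0.98 ± 0.54 (0.610). edgeR called 0 of 10 members and 0.36% of genes, and 2 members (Serpinb9 and Il12b) had an unadjusted p under 0.05, where 9.58% of genes did. DESeq2 called Fscn1, Il12b and Serpinb9 among 7.35% of genes. The groups overlapped for Fscn1, at 37.2 CPM and 0 counts in EGFP- cDC1, against 1 count in each EGFP- cDC2 library. Its log2 fold change was 8.40 ± 3.68 (edgeR adjusted p = 0.523). The 1 member that edgeR called without EGFP+ cDC1 replicate 1 was Serpinb9 (3.75% of genes), and so it was without replicate 2 (3.31% of genes).

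Of the 29 tested genes in the list of other mature state genes, 1 passed edgeR's threshold in any comparison. Cd83, a surface protein of mature dendritic cells, stood at 785 and 1207 CPM in EGFP+ cDC1 and 1707 and 1207 CPM in EGFP- cDC1. It was at 143 and 164 CPM in EGFP+ cDC2 and 263 and 308 CPM in EGFP- cDC2. Cd83 was higher in cDC1 than in cDC2 over both fractions by 2.52 ± 0.27 on the log2 scale (edgeR adjusted p = 0.00251) and within EGFP+ by 2.698 ± 0.348 (adjusted p = 0.0401). The call within EGFP+ was lost with the replicate number as a block (adjusted p = 0.108), with the compared groups alone (0.264), without robust estimation (0.0592) and without any 1 of the 6 libraries other than EGFP+ cDC1 (0.0777 to 0.185). Over both fractions the adjusted p of Cd83 was at most 0.014 in all alternatives. For EGFP in cDC1, 24 of the 29 were positive with a median of 1.12, where 44.9% of all genes were positive with a median of −0.04. Of the 29, 0 were called and 13 were higher without overlap, where 11.5% of all genes were. EGFP+ cDC1 replicate 2 was the highest library for 17 of the 29. Values of this list without that library are not given here. For EGFP in cDC2, 23 of the 29 were negative with a median of −0.57, where 53.1% of all genes were positive, and 0 were called. Without overlap, 10 of the 29 were lower, where 19.2% of all genes were, and 3 were higher, where 22.6% were.

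**Figure D4:**
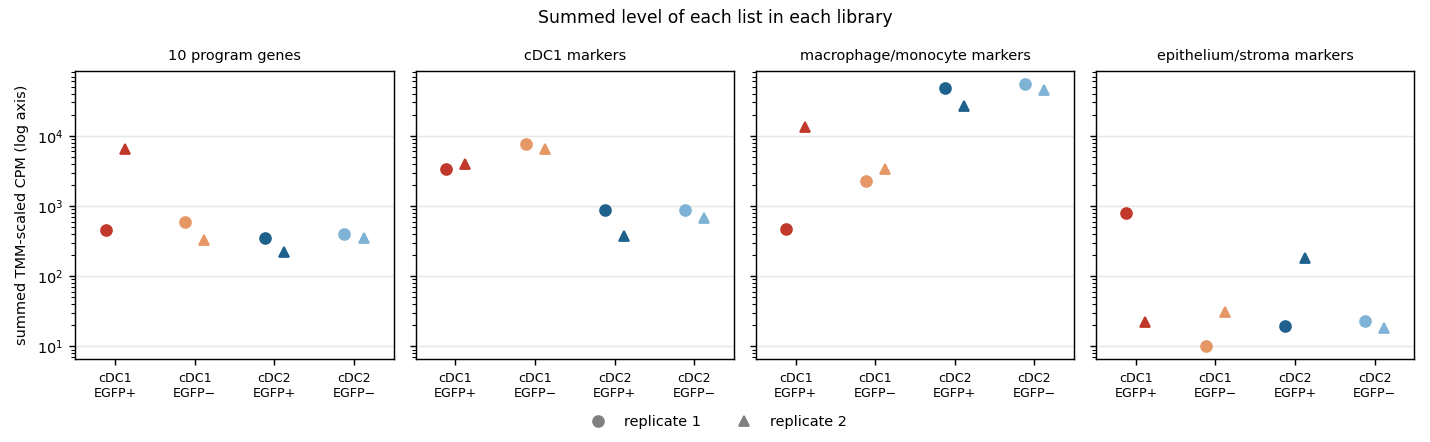
Summed level of each list in each library, in TMM-scaled CPM on a log axis, for the 10 genes, 9 cDC1 markers, 13 macrophage and monocyte markers and 8 epithelium and stroma markers. The 10 genes sum to 6551 CPM in EGFP+ cDC1 replicate 2 and to between 222 and 589 CPM in the other 7 libraries.

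Levels of different members were compared per length, as CPM per kb of exon sequence. In EGFP+ cDC1 the highest mean was that of Il12b, at 1189 CPM per kb, but its libraries were at 12.9 and 2365 CPM per kb. Serpinb9 followed at 178.5 (45.7 and 311), so these neighbours overlapped. In EGFP- cDC1 the order began with Serpinb9, at 54.1 CPM per kb, followed by Il12b at 29.3, again with overlap. In the cDC2 gate Marcksl1 led, at 54.0 CPM per kb in EGFP+ and 70.7 in EGFP- libraries, above Il4ra at 17.5 and 19.6 without overlap in either fraction. Il12b had the lowest mean of the 10 in EGFP+ cDC2, at 0.0762 CPM per kb, overlapping Fscn1 and Cacnb3, whose libraries ranged from 0. In EGFP- cDC2 Fscn1 had the lowest mean, at 0.01634, against 0.01665 for Cacnb3. These overlapped, with at most 3 counts in a library.

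The genes whose pattern over the 8 libraries was most like the mean of the 10 standardised members were Fem1c, Mmp25, Xbp1, Mif4gd and Abhd4. Their Pearson r was 0.978, 0.955, 0.931, 0.924 and 0.919 among 5919 genes compared, over libraries that share their groups and depth. The mean itself was 1.32 in EGFP+ cDC1 replicate 2 and between −0.52 and 0.41 in every other library, so each r leans on that library. Those genes of the other mature state list that were compared ranked from 23 to 3779, with Ccr7 at 346 (r = 0.65). Mmp25, a membrane-bound matrix metalloproteinase, stood at 5.82 and 150.0 CPM in EGFP+ cDC1, against 16.6 and 1.17 CPM in EGFP- cDC1, and was at most 9.79 CPM in cDC2. Xbp1, a transcription factor of the unfolded protein response, was at 137 and 299.5 CPM in EGFP+ cDC1, against 200.3 and 162 CPM in EGFP- cDC1. Most like Fscn1 alone were Nek6, Ncbp1, Arfrp1, Mpg and Acin1, with r from 0.895 to 0.923, and none of these was among the 5 most like the mean.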

How the data were processed

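Sorted cells gave 8 libraries of full-length cDNA, prepared with a KAPA kit per the labels' protocols. Trimmomatic 0.39, STAR 2.7.5c, Cufflinks 2.2.1 and the mm10 build are named per the submitters' processing notes. Which read counter, annotation and strand setting were used is not given in the sources used here. Values are the authors' raw read counts as deposited, whole numbers for 24369 symbols. The members and lists were chosen with earlier results of these data known.

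Tests on the counts used edgeR 4.0.16 under R 4.3.3. filterByExpr left 11394 genes, all 10 members among them, and TMM scaling, glmQLFit with robust estimation and glmQLFTest followed, with Benjamini-Hochberg adjustment over all genes tested. A model with 1 mean per group gave the simple contrasts of EGFP and of subset and their interaction. An additive model of subset and EGFP gave the contrasts over 4 libraries a side. Each standard error is the fold change divided by the root of its F statistic. Likeness used log2 of CPM plus 1 over genes with a mean of at least 10 CPM, without predicted or clone symbols. The text names all 10 members, genes of the other list past the threshold and the 5 genes of highest likeness. Exon lengths and gene positions came from GENCODE M21 (GRCm38). Where they overlap Gm44876 and Gm15555 on the other strand, reads of Il4ra and Samsn1 cannot be told apart from theirs.

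The alternatives were RLE scaling, DESeq2 1.42.0, a fit without the low-count filter, a filter of 10 CPM in 2 libraries, a fit without robust estimation, voom quality weights in limma 3.58.1, the compared groups alone, Rn45s removed, the replicate number as a block, the 4-group model for the averaged contrasts and each library left out, where a lone library was assumed to vary like the other groups. On simulated counts for EGFP in cDC1 (11009 genes, 50 changed at each fold), edgeR recovered 24 of the genes changed 64-fold, 6 of those changed 16-fold and 0 of those changed 4-fold or 2-fold. It called 32, of which 2 were unchanged, whereas DESeq2 called 225, of which 152 were unchanged.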

Additional observations from a re-analysis of the deposited data

Results flagged for a closer look

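Each member was examined in 4 sets of 4 libraries (cDC1, cDC2, EGFP+ and EGFP-), 40 sets in all, for a library far from the other 3. In 6 sets the gap to the nearest library, on the log2(CPM + 1) scale, took up more of the whole range than Dixon's 95% critical value allows. Chance gives about 1 in 20 for separate sets of 1 group, whereas these sets share libraries and mix groups. In 4 of the 6, those of Fscn1 and Cacnb3, the other 3 libraries held at most 3 counts. Fscn1 in cDC2 was highest in EGFP+ replicate 2, at 6.68 CPM, with a gap of 0.974 of the range, and Cacnb3 was highest in the same library, at 3.62 CPM, with a gap of 0.918. Among the EGFP- libraries, Fscn1 (37.2 CPM, gap 0.986) and Cacnb3 (11.8 CPM, gap 0.951) were highest in cDC1 replicate 1. Birc3 was lowest of the EGFP- libraries in cDC1 replicate 2, at 4.43 CPM, with a gap of 0.929. Il4ra was lowest of the EGFP+ libraries in cDC2 replicate 2, at 55.6 CPM, with a gap of 0.849. The stromal sum was 181 CPM in EGFP+ cDC2 replicate 2, against 19.4 CPM in its replicate, and its part in these values was not tested.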

How the results depend on the processing

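With 2 libraries a group and a common dispersion of 1.28, modest differences were not detectable at this depth and replication. Members past the threshold numbered 0 in all 7 comparisons. DESeq2 gave 1 for EGFP in cDC1, 1 for the interaction, 3 for the subsets in EGFP-, 3 in EGFP+ and 4 over both fractions. No low-count filter gave 1 in EGFP+, and voom with quality weights and the 4-group model each gave 1 over both fractions, Serpinb9 in each of these fits. With each library left out, the number ranged from 0 to 2 for EGFP in cDC1, from 0 to 2 for the interaction, from 0 to 1 in EGFP-, from 0 to 5 in EGFP+ and from 0 to 3 over both fractions. For EGFP in cDC2 and for EGFP over both subsets it was 0 in all alternatives. Of the alternative values for the log2 fold changes given, 471 kept their direction and call, 25 passed the threshold in the same direction and 15 changed sign, 2 of them (Samsn1 and Socs2) past the threshold. Those 15 were for EGFP in cDC1; of the members' fold changes not given, 62 alternative values changed sign in the other 6 comparisons. With each library left out, the ranges were −1.04 to 3.28 for Birc3, −9.95 to 12.24 for Cacnb3, −1.19 to 7.13 for Il12b, 0.20 to 12.95 for Fscn1, −0.44 to 0.82 for Il15ra, −1.60 to 2.86 for Marcksl1, −8.65 to 2.79 for Samsn1, −0.24 to 2.53 for Serpinb9 and −10.07 to 1.02 for Socs2. The ends at −9.95, 12.24, 12.95 and −10.07 have a group at 0 counts and depend on the prior count. voom gave −4.15 for Samsn1 and −4.30 for Socs2; the cause was not tested. RLE scaling moved the median of all genes by over 0.1 for the subsets in EGFP+ (−0.20, against −0.30 with TMM) and for the interaction (−0.06 against −0.20 with TMM), and no member changed direction under it.

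In the titles all replicate 1 libraries share a code, and all replicate 2 libraries share another. What the code stands for is not in the labels. Same-numbered libraries deviated from their group means with correlations from −0.224 to 0.0408. They were not treated as pairs in the main fits, although such correlations cannot settle whether they are pairs. With the replicate block 0 members were called in every comparison, and it gave −4.62 for Cacnb3 and −0.60 for Socs2 for EGFP in cDC1. The block left 0 genes in EGFP+, 3 in EGFP- and 82 over both fractions, against 26, 41 and 150 without it. With the numbers of EGFP+ cDC2 crossed, chosen after seeing the data, the count in EGFP+ was 8. Counts of all genes moved by over 1.5 times in other fits. DESeq2 gave 1325 for EGFP in cDC1, 110 in cDC2, 714 for the interaction and 184 for EGFP over both subsets, against 0 by edgeR, and 838, 1586 and 1160 for the subsets in EGFP-, in EGFP+ and over both fractions. No filter gave 57 for EGFP in cDC1, 29 for the interaction, 112 in EGFP-, 153 in EGFP+ and 236 over both fractions. voom gave 528 in EGFP-, 872 over both fractions, 2 for EGFP in cDC2, 4 for EGFP over both subsets and 1 for the interaction. No robust estimation gave 25, 12 and 99 for the subsets in EGFP-, in EGFP+ and over both fractions, the 4-group model gave 275 over both, and the compared groups alone 292 in EGFP- and 0 in EGFP+. Without 1 library the count ranged from 0 to 1050 for EGFP in cDC1, from 0 to 668 for the interaction, from 1 to 465 in EGFP-, from 1 to 1273 in EGFP+ and from 50 to 277 over both fractions.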
